A study of Mus musculus with 12 samples.

Results

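The vas deferens libraries of 5 Hox genotypes were compared by Hoxd9 to Hoxd11 status: the 2 libraries with 2 mutant copies of this block were set against the 3 libraries with at least 1 intact copy. These are 5 of the 12 RNA sequencing libraries of a study of the adult mouse reproductive tract, which asked how expression differs when Hoxa9 to Hoxa11 or Hoxd9 to Hoxd11 are mutated. The other libraries are the uterus of the same genotypes, the WT oviduct and the WT caudal epididymis, the part of the male duct just before the vas deferens.

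The Hoxd-null library carried Hoxd9,10,11-/- and intact Hoxa genes, and the compound Hoxd-null library carried Hoxd9,10,11-/- with Hoxa9,10,11+/-. The Hoxd-intact side held the WT library, the Hoxa-null library (Hoxa9,10,11-/-) and the compound Hoxa-null library, Hoxa9,10,11-/- with Hoxd9,10,11+/-. All animals were on a mixed CD1/129 background, aged 3 to 7 months, and each library was made from RNA pooled from 3 animals. With 1 library per genotype no difference has a replicate check, so differences are printed without an error or a p-value, and "higher" and "lower" describe these libraries. What kind of mutant alleles these are is not stated, so a transcript from a mutant gene can still be counted. Because 2 of the 3 Hoxd-intact libraries are Hoxa-null, and the compound Hoxd-null library is also heterozygous for Hoxa, Hoxd status cannot be told apart from part of the Hoxa status.

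The vas deferens is a tube with a thick coat of smooth muscle and an epithelial lining that carries sperm from the epididymis to the urethra. Hox9 to Hox11 genes encode homeodomain transcription factors of the Abdominal-B class, which set regional identity along the posterior body axis, the limb and the urogenital ducts. The Hoxa and Hoxd copies are known to act redundantly in the reproductive tract.

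The deposited values are log2 values centred on the median of each gene over the 6 male libraries, so only differences between libraries can be read, and each value below is a log2 difference from the WT vas deferens (library minus WT) unless it is called a gap or a level. Where 4 values of a gene are given, they stand in the order Hoxa-null, compound Hoxa-null, Hoxd-null, compound Hoxd-null, and where 5 levels are given, WT comes first. The gap of a gene is the distance between the nearest libraries of the 2 sides. A gene separated when both Hoxd-null libraries lay 1 or more log2 units above, or below, all 3 others. Libraries with next to no reads for a gene stand at a floor of 1 normalised read, and for genes with such a library the level in normalised reads (read counts times 1 factor per library) could be recovered. The relative depth of the 5 libraries, recovered from the same steps, spanned 1.84-fold, with WT the deepest and compound Hoxd-null the shallowest. In these libraries 49.2% to 75.8% of the low values lay on whole reads, so the depth and the levels are estimates. Of 31669 genes, 12598 were constant in the 5 libraries, and 17129 of the 19071 that varied counted as measured. The WT library came from lane 1 of a run and the Hoxa-null, compound Hoxa-null and Hoxd-null libraries from its lane 2, while the compound Hoxd-null library came from a separate run. The WT epididymis came from that separate run too, so its differences from the WT vas deferens cross runs. In the uterus, WT and Hoxa-null came from lane 1 of the first run. The compound Hoxa-null uterus and both Hoxd-null uteri came from its lane 2.

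Of the mutated genes, Hoxd9 stood at 0.68, -0.34, -1.28 and -1.21, lower in the Hoxd-null pair than in all 3 other libraries. Hoxd11 was at -0.88, -1.46, -2.47 and -1.18, so the compound Hoxd-null library lay among the Hoxd-intact ones. Hoxd10, at -0.38, -0.43, -0.27 and 0.49, was not lower in the pair. Of these 3 genes only Hoxd9 was thus lower in both Hoxd-null libraries than in the others, and the transcript level of Hoxd10 checks nothing about the labels.

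Of the measured genes, 27 separated with the Hoxd-null pair higher (0.158%) and 109 with the pair lower (0.636%). A lower gene can count as measured through Hoxd-intact libraries alone, and both Hoxd-null libraries stood at the floor for 18 of the 109. Without genes that have a library at the floor, 24 higher and 85 lower genes separated. The lower genes were led by genes of skeletal muscle fibres, among them fast myosin heavy chains and the calcium pump Atp2a1, and the higher genes by the neuropeptide gene Cartpt. The median gap was 1.38 among the higher and 1.53 among the lower genes, and 5 and 38 genes respectively had a gap of 2 or more. Against WT alone, 608 genes (3.55%) were at least 1 log2 unit higher and 872 (5.09%) lower in Hoxd-null. In compound Hoxd-null the counts were 1325 (7.74%) and 969 (5.66%). Both libraries were higher than WT for 333 genes (1.94%) and lower for 336 (1.96%). With no minimum level the separation counted 49 (0.257%) higher and 140 (0.734%) lower genes of all that varied. The counts rest on which libraries enter, since fewer libraries are easier to separate: 507 higher (2.96%) and 824 lower (4.81%) genes without WT, 220 and 430 without Hoxd-null, 98 and 369 without compound Hoxd-null, and 78 higher genes without compound Hoxa-null. Within lane 2 the Hoxd-null library lay above both Hoxa-null libraries for 868 genes (5.07%) and below them for 1609 (9.39%). Neither the lane 2 count nor the count without WT can tell the Hoxd genotype apart from the opposite Hoxa genotype.

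**Figure D1:**
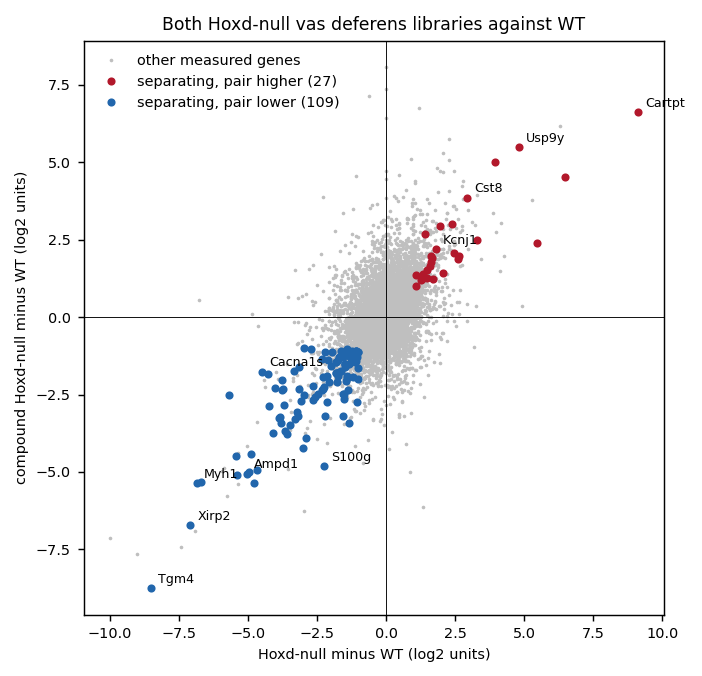
Each point is a measured gene, with the Hoxd-null library on the x axis and the compound Hoxd-null library on the y axis, both as log2 difference from the same WT library, so the axes are not independent. Red points are the 27 separating genes with the pair higher and blue points the 109 with the pair lower, and Cartpt, at 9.11 and 6.63, stands farthest to the upper right.

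Cartpt (Gene ID 27220, chromosome 13, start 100668439, mm9), which encodes the precursor of the CART neuropeptides, had the widest gap of the higher genes, 4.66. Its values were 1.97, 1.91, 9.11 and 6.63. The 2 Hoxd-null libraries were thus far above the other 3, and they differed from each other by 2.48. The WT epididymis was at -0.49. Cyp4a32, a fatty acid hydroxylase of the cytochrome P450 family, followed among the named genes at 0.29, -0.98, 3.28 and 2.49. Members of that P450 cluster resemble each other in sequence and can share reads.

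Kcnj5 and Kcnj1, inward rectifier potassium channel genes that are neighbours on chromosome 9 (starts 32122368 and 32180078, 0.058 Mb apart), separated together. Kcnj5, a subunit of G protein-gated channels, had levels of 10.6 normalised reads in WT, 1 in Hoxa-null, 7.94 in compound Hoxa-null, 66.5 in Hoxd-null and 41.4 in compound Hoxd-null. Kcnj1, the renal channel ROMK, had 7.04 in WT, 1 in both Hoxa-null libraries, 24.5 in Hoxd-null and 32.3 in compound Hoxd-null. For both genes the Hoxa-null libraries lay at or below WT and the Hoxd-null pair above it. The WT epididymis stood at the floor for both. Levels could also be read for Usp9y, a deubiquitinase gene of the Y chromosome, which had 1, 12.9, 7.07, 27.9 and 45.2 normalised reads. All 4 mutants were above WT for Usp9y, with the Hoxd-null pair the highest. The WT epididymis, like the WT vas deferens, stood at the floor for Usp9y. Usp9y has a close copy on the X chromosome, so its reads may be shared.

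The other named higher genes had gaps of 2.06 or less. Lzts1, a leucine zipper protein gene, and Dpp10, which encodes an auxiliary subunit of A-type potassium channels, were at 2.44 and 2.06 and at 2.58 and 1.87 in the pair. Sox11, a transcription factor of developing neurons and mesenchyme, was at 1.57 and 1.65. Frem2, an extracellular matrix protein of the Fraser complex at the epithelial basement membrane, was at 1.31 and 1.22, and the axon guidance ligand gene Slit2 at 1.08 and 1.0. Cst8, an epididymal cystatin, was at 1.64, 0.0021, 2.92 and 3.86, and the WT epididymis was at 2.81. Foxp3, the transcription factor of regulatory T cells, was at 1.40 and 2.69. Snx31, Ahnak2, B3gat1, Npm2, Klf8, Frmpd3, Khdrbs2 and Inpp4b had gaps from 1.09 to 1.61. Ahnak2 has another entry in the files, with which it can share reads. Per2, a repressor of the circadian clock, was at 0.00020, 0.28, 1.35 and 1.38, a gap of 1.06. A list of 18 clock genes was drawn up after Per2 had been seen and includes Per2, so it is no independent check. Its median difference between the pair and the other 3 was 0.33, against -0.017 over all measured genes. Its members ran from -1.42 to 1.27, on both sides of that value.

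**Figure D2:**
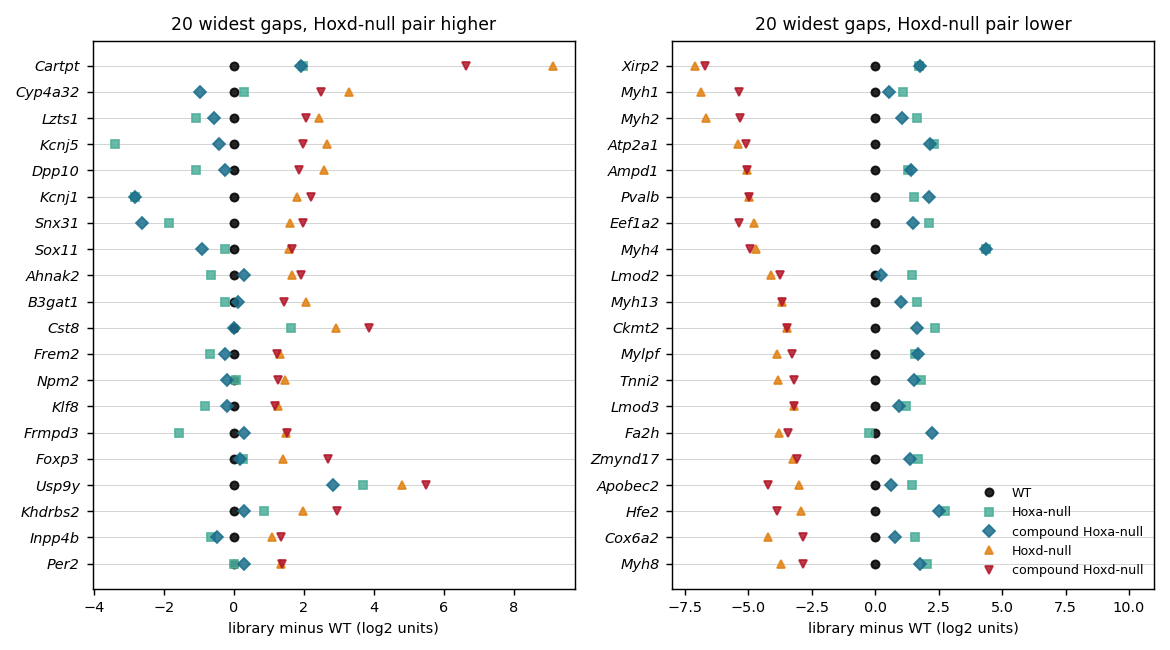
The 20 named genes with the widest gap in each direction are shown from top to bottom, with the log2 difference of each library from WT on the x axis and 1 symbol per library. In the right panel both Hoxd-null symbols lie left of WT for all 20 genes, from Xirp2 with a gap of 6.73 to Myh8 with 2.83.

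Among the lower genes, Xirp2 (Gene ID 241431, chromosome 2, start 67284059, mm9), an actin-binding Xin repeat protein of striated muscle, had the widest gap, 6.73. It stood at 1.72, 1.75, -7.09 and -6.73, and at -3.66 in the WT epididymis. The myosin heavy chain genes of fast fibres followed, with Myh1 at 1.08, 0.56, -6.85 and -5.37 and Myh2 at 1.65, 1.04, -6.69 and -5.32. Myh4, the fastest isoform, was at 4.37, 4.35, -4.69 and -4.94. Atp2a1, the calcium pump of the fast fibre sarcoplasmic reticulum, was at 2.32, 2.16, -5.40 and -5.11, and Pvalb, the calcium buffer parvalbumin, at 1.53, 2.13, -4.98 and -4.99. For these genes WT lay between the 2 Hoxa-null libraries above and the Hoxd-null pair below. The Myh genes Myh3, Myh2, Myh1, Myh4, Myh8 and Myh13 all separated and lie side by side on chromosome 11 (starts 66891802 to 67140605), and as close copies they can share reads, so they are not independent of each other.

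Of the 23 measured members of a skeletal muscle list, 11 separated with the pair lower and 0 higher, beside 0.636% of all measured genes. The list was chosen with earlier results of these data known, and its fast Myh genes can share reads. The count is therefore a description and no independent check. The median difference of the pair from the other 3 was -2.97 for the list and -0.017 over all measured genes. The list medians against WT were 1.32, 0.88, -3.16 and -2.31, and -2.35 in the WT epididymis. The pair lay below all 3 others by any amount for 16 of the members and above for 1, beside 2171 (12.7%) and 2158 (12.6%) of all measured genes. Besides Myh1, Myh2, Myh4, Atp2a1 and Pvalb the separating members were the fast light chains Mylpf and Myl1, the fast troponin subunit Tnni2, the sarcomere proteins Ttn and Tcap and the Z-disc protein Actn2. Mylpf stood at 1.57, 1.67, -3.87 and -3.27 and Tnni2 at 1.79, 1.54, -3.83 and -3.22.

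Not all skeletal muscle genes followed. Acta1, skeletal alpha-actin, was at -0.79, -1.02, -0.0043 and -1.01, and Casq1, the calcium store protein of fast fibres, at -1.90, -1.78, -0.68 and -1.01. Neb, the thin filament protein nebulin, was above WT in all 4 mutants, at 0.42, 0.60, 1.13 and 0.86. Tnnc1, the slow and cardiac troponin C, was lower than WT in all 4, at -4.01, -4.88, -2.93 and -3.75. Myh7, the slow myosin heavy chain, was also lower than WT in all 4, at -4.36, -3.12, -5.93 and -4.98. For Myh7 the pair was the lowest, but short of the threshold. Ryr1, the calcium release channel, was at 2.09, 1.27, -0.90 and -1.21 and just missed the threshold. The other 12 measured members thus included genes with no lower value in the pair. Myod1 and Myog, the myogenic regulators on the list, did not count as measured.

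Of 20 measured smooth muscle contractile genes 0 separated in either direction, a count near the shares over all measured genes (0.158% higher, 0.636% lower), and the pair lay higher by a median of 0.70. Their medians against WT were -1.12, -1.10, 0.17 and -0.28. Myh11, the smooth muscle myosin, stood at -0.75, -0.48, 0.93 and -0.19, and Actg2, enteric gamma-actin, at -1.45, -1.82, 0.21 and -0.95. In the Hoxd-null libraries every gene on the list lay within 1.08 of WT, and the lower medians were those of the Hoxa-null libraries. The list also holds Ckm, Casq2, Ldb3 and Hspb7, which striated muscle expresses too, so it is not particular to smooth muscle. For every gene on the list, Ckm included, the mean of the pair minus that of the others was -0.16 or higher. Ckm was thus not lower in the pair as the separating skeletal muscle genes were. Skeletal muscle fibres are another cell type than the smooth muscle of this duct, and their part in the separation was not tested. In bulk RNA fewer cells of a type and less RNA per cell cannot be told apart.

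**Figure D3:**
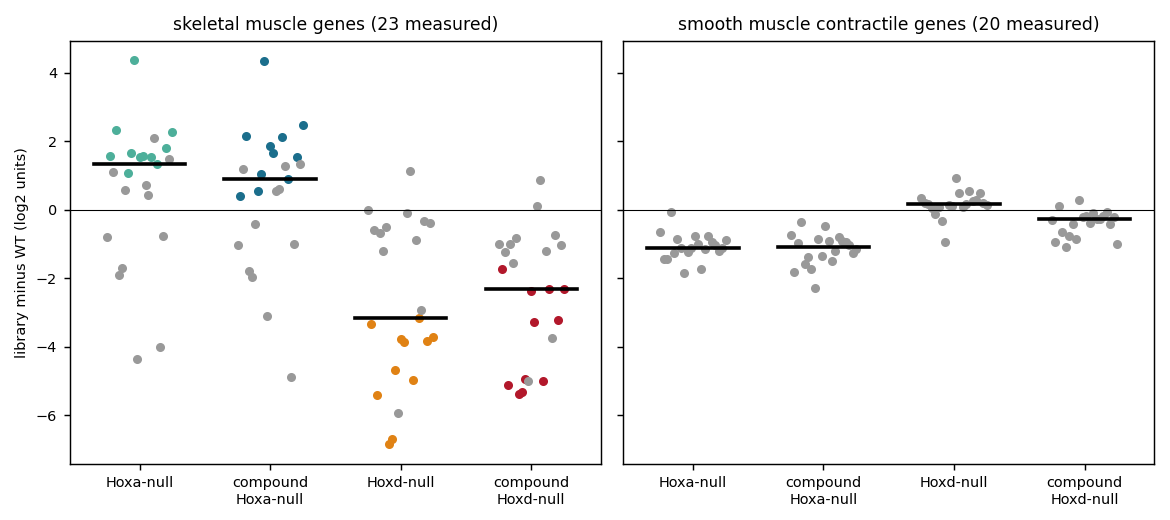
Each point is 1 gene in 1 library, as log2 difference from WT, with the median as a black bar, for the 23 measured skeletal muscle genes on the left and the 20 smooth muscle genes on the right. Coloured points are the 11 separating skeletal muscle genes, which lie above 0 in both Hoxa-null libraries and below 0 in both Hoxd-null libraries. The smooth muscle medians are -1.12, -1.10, 0.17 and -0.28.

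A further 30 lower genes of striated muscle were picked out after their values were seen, which with the 11 list members makes 41 of the 109. They included Ampd1, the muscle AMP deaminase, at 33.1, 82.0, 88.4, 1 and 1 normalised reads. Mstn, the growth inhibitor myostatin, had 6.34, 82.0, 91.1, 1 and 1, and Ckmt2, the sarcomeric mitochondrial creatine kinase, 11.3, 57.1, 35.4, 1 and 1. In each of these the Hoxd-null pair stood at the floor and WT was the lowest of the other 3. Lmod2, Lmod3 and Xirp1 of the sarcomere, the calcium channel Cacna1s and the sodium channel Scn4a belonged to the same set. So did the coupling protein Trdn, the dehydrogenase family member Dhrs7c and the Z-disc protein Myot. Across the 41 genes WT was the library nearest to the pair in 39, and Hoxa-null was the highest in 28 and compound Hoxa-null in 13. Of the other 68 lower genes WT was nearest in 45, and Hoxa-null was the highest in 28 and compound Hoxa-null in 32. WT was thus nearest for most lower genes of either kind.

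The stretch of 250 bases before the start is shown for 7 separating genes, because the muscle genes were lower together in the pair and Cartpt had the widest gap of the higher genes. They are RefSeq sequences on GRCm38, in gene orientation, at chr13:99900684-99900933 (Cartpt, minus strand), chr2:67445752-67446001 (Xirp2, plus), chr7:126463074-126463323 (Atp2a1, minus), chr7:127211358-127211607 (Mylpf, plus), chr11:67199852-67200101 (Myh1, plus), chr11:67170777-67171026 (Myh2, plus) and chr11:67237562-67237811 (Myh4, plus). Capitals mark matches on either strand to CAGCTG (an E-box), TATAAA (the TATA box), a MEF2 site (CTA and TAG with 4 bases between), TAATTA (a homeodomain site) and TGACGTCA (the cAMP response element).
Cartpt: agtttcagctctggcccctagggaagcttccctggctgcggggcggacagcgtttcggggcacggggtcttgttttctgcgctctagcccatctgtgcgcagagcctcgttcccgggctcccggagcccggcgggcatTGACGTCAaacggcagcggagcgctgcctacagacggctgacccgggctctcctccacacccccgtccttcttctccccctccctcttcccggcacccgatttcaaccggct
Xirp2: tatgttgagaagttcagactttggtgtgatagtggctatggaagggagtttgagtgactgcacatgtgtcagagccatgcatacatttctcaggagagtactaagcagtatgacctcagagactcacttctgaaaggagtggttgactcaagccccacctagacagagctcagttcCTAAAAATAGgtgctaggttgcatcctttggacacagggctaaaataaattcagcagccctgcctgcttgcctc
Atp2a1: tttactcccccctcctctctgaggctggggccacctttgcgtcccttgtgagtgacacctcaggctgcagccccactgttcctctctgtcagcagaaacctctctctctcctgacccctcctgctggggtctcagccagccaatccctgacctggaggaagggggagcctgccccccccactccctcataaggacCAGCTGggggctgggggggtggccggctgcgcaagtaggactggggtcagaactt
Mylpf: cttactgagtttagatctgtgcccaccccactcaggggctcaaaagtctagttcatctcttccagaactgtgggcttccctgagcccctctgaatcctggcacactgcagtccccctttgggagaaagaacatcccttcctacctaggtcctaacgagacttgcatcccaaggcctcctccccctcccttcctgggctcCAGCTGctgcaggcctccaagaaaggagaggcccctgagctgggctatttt
Myh1: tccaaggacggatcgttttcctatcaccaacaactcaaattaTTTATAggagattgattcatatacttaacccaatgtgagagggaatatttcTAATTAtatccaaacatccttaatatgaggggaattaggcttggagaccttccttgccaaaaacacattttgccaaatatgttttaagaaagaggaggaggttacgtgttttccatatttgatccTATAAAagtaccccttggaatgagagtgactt
Myh2: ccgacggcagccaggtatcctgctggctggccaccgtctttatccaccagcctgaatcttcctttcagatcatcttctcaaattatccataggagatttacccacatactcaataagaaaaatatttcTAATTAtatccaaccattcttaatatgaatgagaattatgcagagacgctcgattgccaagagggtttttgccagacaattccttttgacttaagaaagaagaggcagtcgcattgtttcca
Myh4: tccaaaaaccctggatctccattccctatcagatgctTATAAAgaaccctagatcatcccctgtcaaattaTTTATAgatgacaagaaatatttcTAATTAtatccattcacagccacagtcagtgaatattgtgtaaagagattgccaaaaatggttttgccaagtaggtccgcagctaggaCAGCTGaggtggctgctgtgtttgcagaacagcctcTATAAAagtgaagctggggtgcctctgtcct

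The Myh1, Myh2 and Myh4 stretches each held TAATTA, and Myh1 and Myh4 held TATAAA, with the match nearest to the start 32 and 31 bases before it. The bases around TAATTA are nearly alike in Myh1, Myh2 and Myh4, so their matches are not independent of each other in the counts of lower genes. Atp2a1, Mylpf and Myh4 held CAGCTG, Xirp2 the MEF2 letters and Cartpt the cAMP response element. In all, 10 motifs were searched on both strands after the separating genes were known. The promoter table matched 18 of the 27 higher genes and 67 of the 109 lower genes, taking the first promoter listed per gene, and held 27025 genes. CAGCTG was present in 5 of 18 higher (27.8%), 12 of 67 lower (17.9%) and 12.8% of all promoters, TATAAA in 3 (16.7%), 15 (22.4%) and 13.0%, the MEF2 site in 0, 3 (4.48%) and 3.23%, TAATTA in 0, 6 (8.96%) and 4.90%, and TGACGTCA in 1 (5.56%), 2 (2.99%) and 1.62%. Of the 3 strings taken for posterior Hox proteins, TTTACGA was in 0, 0 and 0.49%, TTTATGG in 0, 2 (2.99%) and 2.45% and TTTATTA in 0, 1 (1.49%) and 4.58%. A loose CArG box (CC and GG with 6 bases between) was in 11 (61.1%), 36 (53.7%) and 66.7%, and the androgen response element (AGAACA and TGT with 3 bases between) in 0, 0 and 0.35%. These are counts of letters in a short window, and nothing was tested about binding.

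Of the remaining 68 lower genes 43 are named. Tgm4, the prostate transglutaminase, was at -6.66, -7.46, -8.53 and -8.76, so it was highest in WT and only a gap of 1.07 parted the pair from the compound Hoxa-null library. Svs3a, a seminal vesicle secretory protein, was at 2.35, 0.97, -2.33 and -2.35. The 10 measured seminal vesicle genes had a median of -2.25 between the pair and the other 3, and the 8 measured prostate genes one of -1.72. Against WT the seminal vesicle medians were 2.93, 1.84, -0.33 and -0.40, highest in the Hoxa-null libraries and near WT in the pair. The prostate medians against WT were 0.34, -1.32, -3.75 and -1.71. The seminal vesicle proteins Semg1 and Svs5 did not separate, at 3.63, 3.24, 0.25 and -0.14 and at 3.18, 2.63, -0.27 and -0.71. Pbsn, the prostate protein probasin, had 513, 9.03, 1, 1 and 2.59 normalised reads. Genes of neighbouring glands thus varied among all 5 libraries, and their part in the separation was not tested.

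S100g, the calcium-binding protein calbindin-D9k, was at 0.27, 0.32, -2.26 and -4.82, and Fa2h, which hydroxylates fatty acids of sphingolipids, at -0.26, 2.25, -3.80 and -3.43. Rec8, a meiotic cohesin subunit, was at 0.67, -0.071, -2.98 and -2.53. Cyp21a1, the steroid 21-hydroxylase, was at 3.08, 2.83, -1.96 and -1.12 at 1 of its 2 entries in the files, which can share reads, and the Wnt ligand gene Wnt10a at 0.63, 0.32, -1.03 and -1.13. In 20 of the 68 genes the compound Hoxa-null library lay 2 or more above the Hoxa-null library. Tex21, a testis-expressed gene, had 2.11, 14.7, 87.5, 1 and 1 normalised reads, and Abca14, a transporter gene, 2.11, 2.76, 47.5, 1 and 1. For such genes the WT level lay close to the floor, so a difference from it rests on few reads. Both null libraries stood at the floor for 18 of the 109 lower genes.

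Each side of the threshold held genes with nearly the same gap. Slit2, at 1.0, Per2 and Inpp4b were the last inside on the higher side, and Gpr63, Chrm2 and Ncam2 the first outside, at 0.99, 0.98 and 0.95. On the lower side Cdkn2a, Tmprss7 and Entpd3 were inside, at 1.0, 1.02 and 1.03, and Ccdc162, Batf3 and Hist1h4j outside, at 0.99, 0.97 and 0.96. Within the pair, Cacna1s was 2.72 higher in the compound Hoxd-null library, S100g and Cartpt were at -2.56 and -2.48 (compound minus single), and Cdkn2a was 1.98 higher. The compound library lay 1 or more above the Hoxd-null library for 2 higher and 15 lower genes and 1 or more below it for 3 and 6.

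Of 25 measured Hoxa, Hoxb and Hoxc genes and of 15 measured Hoxd genes and neighbours 0 separated, which for lists of this size is near the 0.158% higher and 0.636% lower of all measured genes. Hoxd9, given above, came closest of the mutated block, with a gap of 0.87. Hoxd8, beside the block, was at 0.44, 0.16, -0.29 and -0.39. Hoxd13 and Hoxa13, the most posterior members, were at -1.68, -1.60, 0.15 and 0.29 and at -3.56, -3.61, -0.35 and 0.31, lowest in the 2 Hoxa-null libraries. The 8 measured Hoxb genes stayed within 0.88 of WT in all 4 mutants. The Hox cofactor genes Meis1 and Meis2 were at -1.13, -0.95, 0.22 and 0.32 and at -0.86, -0.76, 0.31 and 0.54.

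Around Hoxd9 on chromosome 2, 0 of 19 measured genes within 1 Mb separated, 1 of 74 within 5 Mb, 4 of 117 within 10 Mb and 4 of 221 within 20 Mb, all lower. They were Ttn, at 2.01 Mb from the start of Hoxd9, Kbtbd10, a kelch protein of striated muscle, at -5.03 Mb, Xirp2, at -7.25 Mb, and 1 unannotated gene. Kbtbd10 stood at 1.36, 0.80, -1.72 and -1.77 and Ttn at 2.28, 2.47, -3.72 and -2.32. The 3 named genes all encode striated muscle proteins. On chromosome 2 as a whole 0.82% of measured genes separated, against 0.79% over all chromosomes. On a mixed background, alleles linked to the mutant Hoxd locus cannot be told apart from the genotype.

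**Figure D4:**
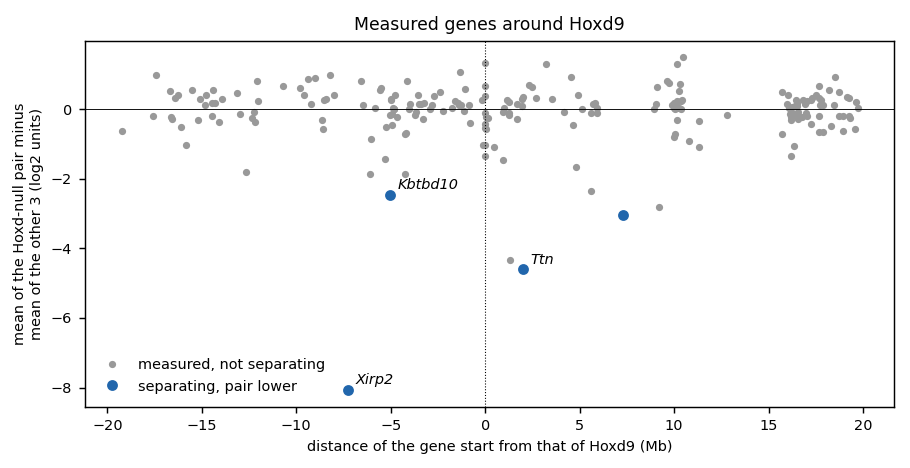
Points are measured genes of chromosome 2 within 20 Mb of Hoxd9, with distance from the start of Hoxd9 in Mb on the x axis and the mean of the Hoxd-null pair minus the mean of the other 3 libraries (log2 units) on the y axis. The 4 separating genes, in blue, lie away from Hoxd9, and 0 of the 19 genes within 1 Mb separated.

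The same genotypes in the uterus, which shares no library with the vas deferens, gave 157 genes with the Hoxd-null pair higher (0.935%) and 62 lower (0.369%). Of the separating vas deferens genes, 15 higher and 63 lower were also measured in the uterus. A single gene was higher in both tissues, 6.67% of these 15 and 0.781% of the 128 uterine genes measured in both: Khdrbs2, an RNA-binding protein gene, at 0.78, -0.14, 3.29 and 2.42 in the uterus, against the WT uterus, and 0.87, 0.30, 1.97 and 2.95 in the vas deferens. A single gene was lower in both, 1.59% of the 63 and 2.86% of 35: S100g, at -1.40, -0.38, -2.54 and -3.04 in the uterus. Of 18 skeletal muscle genes measured in both tissues, 0 separated in the uterus in either direction, and their medians there were -0.50, 0.0069, -0.065 and -0.47. Myh1 stood at -1.36, -0.069, -1.36 and -0.26 and Atp2a1 at -1.02, -0.50, -1.05 and -0.046 in the uterus. Other muscle genes varied widely among the uterine genotypes without separating the pair by 1 log2 unit, such as Myh3 at -2.81, -3.37, -5.08 and -2.20, Eef1a2, a translation elongation factor of muscle and neurons, at -3.39, -2.29, 0.83 and 0.20, and Apobec2, a muscle member of the deaminase family, at 3.35, 0.51, -0.49 and 2.63. Of the 18 list genes, 7, 7, 3 and 4 were at least 1 lower than the WT uterus in the 4 mutant uteri, in the same order. At least 1 higher were 1, 3, 3 and 1. The genes need not be the same in each library, and shares over all uterine genes were not counted, so nothing is read from these counts. By any amount, the uterine pair lay below all 3 others for 9 of the 63 lower genes and above them for 6, and above for 1 and below for 1 of the 15 higher genes. Over all 16786 genes measured in the uterus these shares were 13.8% below and 14.6% above, so the counts are near the background.

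Across 47 gene lists with a measured member, 10 held a separating gene and only the skeletal muscle list held more than 2. The medians between the pair and the other 3 for the 37 lists with none ran from -1.06 for beta-defensins to 0.70 for smooth muscle. Beta-defensins, antimicrobial peptides of the epididymal epithelium, had medians of 2.48, 2.36, 0.069 and 0.73 against WT, highest in the 2 Hoxa-null libraries. The B and plasma cell list had 0.63 between the pair and the others, with medians of -3.04, -3.27, -1.16 and -1.60 against WT, below WT in each mutant. Adipocyte genes, markers of fat around the duct, had medians of 1.75, 2.22, 0.066 and 1.74. Macrophage genes had -0.22, -0.30, -0.59 and -0.25 and fibroblast and collagen genes -0.37, -0.074, 0.15 and -0.032. The fat genes thus differed between the 2 Hoxd-null libraries.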

How the data were processed

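RNA sequencing of mouse vas deferens was used, with 1 library per genotype. Per the labels, RNA was taken from fresh tissue with a Qiagen RNeasy kit, and Illumina TruSeq reagents made the libraries. TopHat and the build mm9 are named in the submitters' processing notes; how reads were counted and normalised is not given in the sources used here. The deposited values are log2 values centred by the authors on each gene's median over the 6 male libraries (largest remaining median 9.55e-07), so depth and levels are unknown except where the spacing of low values showed them. Libraries were grouped by the labels, and run and lane were taken per the file headers.

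Library shifts of at most 0.0041 log2 units were removed. Measured genes were those with 20 or more normalised reads in at least 1 vas deferens library, together with 16573 genes whose level was not readable. Levels are given only for genes with a library at the floor. The threshold was 1 log2 unit. No test was run: each genotype has 1 library, and a test of the 2 against the 3 libraries would take differences between genotypes as the error. The members, the rule and the 48 gene lists were chosen with earlier results of these data known, and the clock list and the set of further muscle genes after the present values were seen. Named genes are the 20 widest gaps in each direction, the Hox genes, separating list members and up to 4 members per list with the largest difference, separating genes within 20 Mb of Hoxd9, genes shared with the uterus, 3 genes on each side of the threshold and the 5 largest differences within the pair. Other separating genes named here were chosen after their values were seen. Predicted genes (6 higher, 25 lower) are counted but not named. Some results that these rules would name are not reported here. The separation was checked on simulated data. Alternatives covered the minimum level, centring, threshold, reference and each library left out. Python 3.11.15, pandas 2.3.3, numpy 2.4.6 and matplotlib 3.10.9 were used.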

Additional observations from a re-analysis of the deposited data

Results flagged for a closer look

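In 7 named genes the Hoxd-null pair lay on one side of all 3 others in the vas deferens and on the opposite side of all 3 in the uterus, by any amount; the difference between tissues was not tested. Another 10 separating genes, predicted ones included, lay on the same side in both tissues. In the uterus 14.6% of measured genes lay above and 13.8% below all 3 others by any amount, so such counts are near the background. Of the 7 genes, 6 were lower in the vas deferens and higher in the uterus, where the gaps were 0.12 for Abca14, 0.57 for Art5, 0.34 for Cacna1s, 0.20 for Eef1a2, 0.53 for Itgb1bp2 and 0.036 for Tcap, against vas deferens gaps of -1.08, -1.53, -1.76, -4.77, -1.79 and -2.31. Per2, higher in the vas deferens by a gap of 1.06, was lower in the uterus by a gap of -0.19.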

How the results depend on the processing

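No paired analysis was possible because each genotype has 1 library and the labels give no replicate number. Genes with no readable level, 16573 of the 17129 measured, passed any minimum level, so the minimum of 100 normalised reads could not be applied to them. The counts of separating genes stayed within 1.5 times of 27 higher and 109 lower with no shift removed, with another centring, with a minimum of 100 normalised reads and without genes that have a library at the floor. They moved to 49 higher without a minimum level, to 176 higher and 296 lower at a threshold of 0.5, to 5 and 38 at a threshold of 2, to 613 and 1252 when the mean of the pair was set against the mean of the other 3, and to 868 and 1609 with lane 2 libraries only. Leaving out 1 library gave 38 to 507 higher and 133 to 824 lower genes, as fewer libraries are easier to separate. The skeletal muscle count of 11, a result added after the values were seen, was 10 at a threshold of 2 and could not fall when a library was left out. Against WT, the 872 genes lower in Hoxd-null became 1624 with the mean of the 3 Hoxd-intact libraries as reference. The genes shared with the uterus became 2 higher without a minimum level and 3 higher and 6 lower at 0.5, and the share on chromosome 2 became 2.32% at 0.5, beside 2.76% over all chromosomes. Of the 40 genes with the widest gaps, 17 fell under a threshold of 2; the rule fixes their direction under the other settings. Other settings for the epididymis values were not run, since it is compared with the same WT library. Total reads are unknown, so counting error could not be given, and levels near the floor rest on a few reads.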
